A study of Homo sapiens with 8 samples.

Results

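The 6 genes that lie under the H3K36me3 peaks of highest fold enrichment in SETD2 knockdown cells are NFX1, EIF4B, MAN1B1, CEP72, BRD9 and TRIP13. Their peaks were all those overlapping the hg19 span of a gene by 1 bp or more. These were 13 of the 23488 peaks of the knockdown list and 16 of the 35375 peaks of the control list. HepG2, an established human liver cancer line, stably expressed an shRNA against SETD2 (SETD2 knockdown, shSETD2) or a non-specific control shRNA (control, shCtrl). Both were delivered by lentivirus in polybrene, with selection by puromycin. Each condition had 2 H3K36me3 immunoprecipitates and 2 inputs without antibody, 8 libraries in all. The replicates of a group were pooled before peaks were called, so each condition gave 1 list and no test between the conditions was possible. After duplicate removal the pooled immunoprecipitates held 67053273 tags in shSETD2 and 47880817 in shCtrl, called filtered tags here. Neither SETD2 itself nor markers of the cell line were analysed here.

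SETD2 is the enzyme that places trimethylation on lysine 36 of histone H3 in human cells. It travels with elongating RNA polymerase II, so the mark covers the bodies of transcribed genes and is usually scarce at their start sites. The mark is known as a platform for proteins that act on splicing, DNA repair and DNA methylation.

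The members were chosen by the authors' fold enrichment in the knockdown list, which is tags over the local input background and ranks peaks only within 1 list. The best peaks of NFX1, CEP72, MAN1B1, EIF4B and TRIP13 ranked 1, 2, 3, 4 and 5 there, with fold enrichments of 16.72, 15.89, 15.75, 15.37 and 15.2. BRD9 ranked 8 with 14.15. Just outside were the peaks of rank 6 on chromosome 1 from 67871846 to 67896063 (14.54) and of rank 7 on chromosome 11 from 3378807 to 3399733 (14.5), both above BRD9. These values describe the choice and test nothing.

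In the control list, which the choice did not use, the same genes did not rank evenly. EIF4B had the peak of rank 56 and NFX1 that of rank 65 among 35375, with fold enrichments of 26.24 and 25.87. MAN1B1 followed at rank 695 (17.68), BRD9 at 846 (16.88), CEP72 at 1464 (14.58) and TRIP13 at 2558 (12.08). The median of these 6 ranks, 770, lies in the upper 2.18% of the list. Each is the rank of the best control peak over a gene, set against single peaks. Other control peaks over the genes ranked lower, as far down as 28597 at MAN1B1. By tags per kb, the median rank was 1816 and the order differed, with EIF4B at 117, BRD9 at 837, NFX1 at 974, MAN1B1 at 2659, TRIP13 at 3815 and CEP72 at 6901. A higher fold enrichment than the best peak of EIF4B was found in 0.155% of control peaks and than that of NFX1 in 0.181%, whereas 7.23% of control peaks had a higher fold enrichment than the best one of TRIP13.

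**Figure D1:**
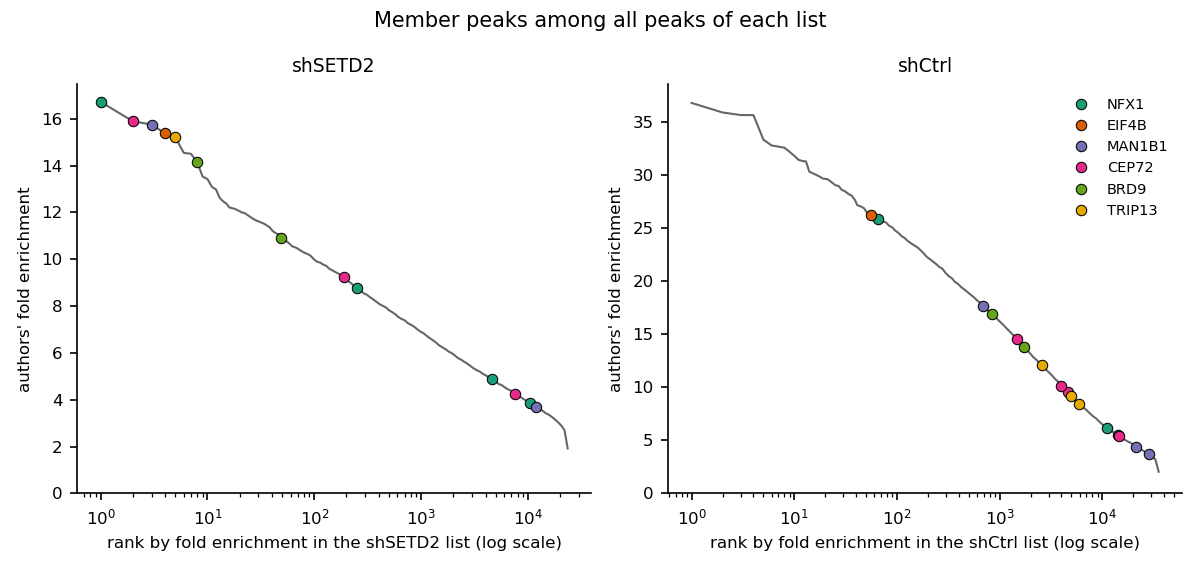
Fold enrichment of all peaks (line) against their rank on a log axis in the shSETD2 list (left) and the shCtrl list (right), with the peaks over the 6 genes as coloured points. The peak shared by BRD9 and TRIP13 is drawn once on the left. The best peaks hold ranks 1 to 5 and 8 in shSETD2, and ranks 56 to 2558 in shCtrl.

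Together the 6 spans measure 235 kb. Peaks covered 196 kb of them in shSETD2 (83.5%) and 204 kb in shCtrl (87.2%). All 13 knockdown peaks lay on a control peak, as did 83.0% of the whole knockdown list. Conversely, 14 of the 16 control peaks had a knockdown peak on them, against 39.5% of the whole control list. The false discovery rate (FDR) that the caller gives a peak was 5% or less for 7 of the 13 knockdown peaks (5.30% of all knockdown peaks) and for 13 of the 16 control peaks (50.5% of all control peaks). The genes were picked for strong knockdown peaks, so nothing is read from these counts.

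Signal was measured as tag density, in tags per kb per 1000000 filtered tags, over all peaks on a gene. Intervals are 95% and cover counting error only, and no input was taken off. Density is relative to the filtered tags of each list, so absolute amounts of the mark were not measured. By gene, the density was lower in shSETD2 beyond counting error at 3 of the 6, EIF4B, NFX1 and BRD9. It was higher at 1 (TRIP13), and the intervals of MAN1B1 and CEP72 held equality. The BRD9 interval ended just below equality, and its sums had unlike bounds, since 1 of its knockdown peaks ran on into TRIP13. Each BRD9 peak against the control peaks it overlapped held equality, with log2 ratios of -0.03 (-0.12 to 0.06) and -0.02 (-0.10 to 0.06). By peak, 6 of the 13 knockdown peaks were less dense than the control peaks they overlapped beyond counting error, against 90.6% of all 19497 such knockdown peaks. A higher density in shSETD2 was found at 3 of the 13 (1.24% of all), and beyond counting error at 2 (0.118% of all). Of those 2, a MAN1B1 peak of 4.34 kb lay on a control peak of 13.4 kb. The other, a TRIP13 peak of 29.7 kb, lay on control peaks of 11.3 and 8.44 kb. The intervals do not cover such unlike bounds. The median log2 ratio, shSETD2 over shCtrl, was -0.12 over the 13 peaks and -0.75 over all 19497. Where a control and a knockdown peak each covered at least 90% of the other, 0 of 4 pairs over these genes were denser in shSETD2, against 1.41% of all such pairs, and the median log2 ratios were -0.22 and -0.67. Knockdown tags enter both the choice and the ratio, so these shares are a description.

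**Figure D2:**
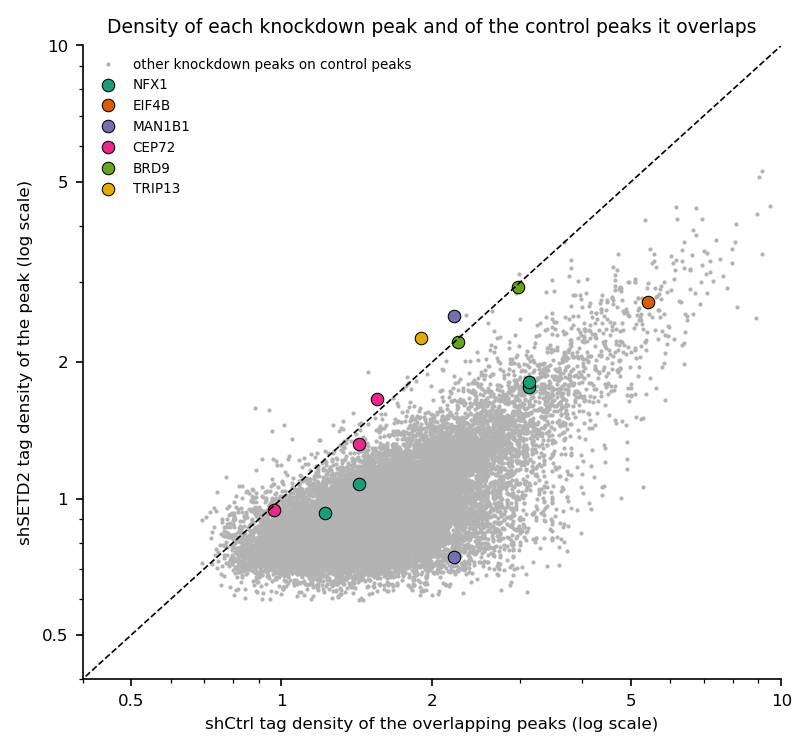
Tag density of each knockdown peak that overlaps a control peak (vertical, log scale) against that of the control peaks it overlaps (horizontal, log scale), with the 13 peaks over the 6 genes coloured; the dashed line marks equal density. Peaks of CEP72, BRD9 and TRIP13 lie near or above the line, while those of EIF4B and NFX1 lie below it with most of the 19497 peaks.

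EIF4B encodes a cofactor that stimulates the helicase eIF4A during translation initiation. Its domain had nearly the same length in both lists and a lower density in the knockdown. Its span on chromosome 12 from 53400042 to 53435993 held a single peak in each list, 34.7 kb wide in shSETD2 and 34.5 kb in shCtrl, with starts 303 bp and ends 163 bp apart. The density was 2.71 in shSETD2 (2.65 to 2.78) and 5.41 in shCtrl (5.30 to 5.53). The log2 ratio was -1.0 (-1.04 to -0.95), so the knockdown held 50.2% of the control density over almost the same bases. The peaks began 0.723 kb after the start of the gene in shSETD2 and 1.03 kb after it in shCtrl, and their summits lay 30.9 and 28.4 kb into the gene, towards its end.

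NFX1 encodes a zinc finger protein first described as binding the X box of MHC class II promoters. Its span, on chromosome 9 from 33290417 to 33371155, was covered over 84.1% in shSETD2 and 87.8% in shCtrl. The density over its peaks was 1.65 in shSETD2 (1.62 to 1.69) and 2.82 in shCtrl (2.77 to 2.88), with a log2 ratio of -0.77 (-0.81 to -0.73). The main domain was called as 2 peaks of 34.1 and 23.0 kb in shSETD2, parted by 2.24 kb, and as 1 peak of 59.0 kb in shCtrl. Both knockdown pieces had lower densities, 1.76 and 1.81, than the 3.13 of the control peak. The piece of 34.1 kb had 4019 tags and a fold enrichment of 8.76, yet an FDR of 46.33%, whereas the neighbouring piece had an FDR of 0%. Towards the high end of the span, 2 weaker peaks in each list had densities of 0.928 and 1.08 in shSETD2, against 1.22 and 1.43 in shCtrl. All 4 knockdown peaks over NFX1 were less dense than their control peaks beyond counting error, with the smaller differences at the weaker peaks (log2 ratios of -0.40 and -0.41).

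MAN1B1 encodes the mannosidase of the endoplasmic reticulum that trims N-linked glycans and marks misfolded glycoproteins for degradation. Here the domain was called much shorter in the knockdown. On its span, chromosome 9 from 139981379 to 140003639, peaks covered 28.2% in shSETD2 and 81.7% in shCtrl. The knockdown had a core of 4.34 kb with a density of 2.53 (2.36 to 2.72) and a second peak of 1.95 kb at 0.744 (0.603 to 0.907). Both lay inside a control peak of 13.4 kb with a density of 2.21 (2.09 to 2.33). The control had 2 further peaks nearer the start of the gene, of 2.50 and 2.33 kb at densities of 0.876 and 0.853, which overlapped no knockdown peak. The summit of the core stood 3 bp from that of the control peak, 15.6 kb into the gene in both lists.

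Over the bounds of its own peaks MAN1B1 had 1.98 in shSETD2 (1.85 to 2.12) and 1.85 in shCtrl (1.76 to 1.94), a log2 ratio of 0.10 (-0.02 to 0.22). That value compares 6.29 kb of peaks with 18.2 kb. With the whole span taken in both lists, and its uncalled part set to the density outside peaks (0.337 in shSETD2, 0.235 in shCtrl), the estimates were 0.801 in shSETD2 and 1.56 in shCtrl, a log2 ratio of -0.96. The same estimate, chosen after the data were seen, gave log2 ratios of -0.79 at NFX1, -0.99 at EIF4B, 0.14 at CEP72, -0.05 at BRD9 and 0.42 at TRIP13. Only at MAN1B1 did it move the ratio by more than 1.5 times.

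**Figure D3:**
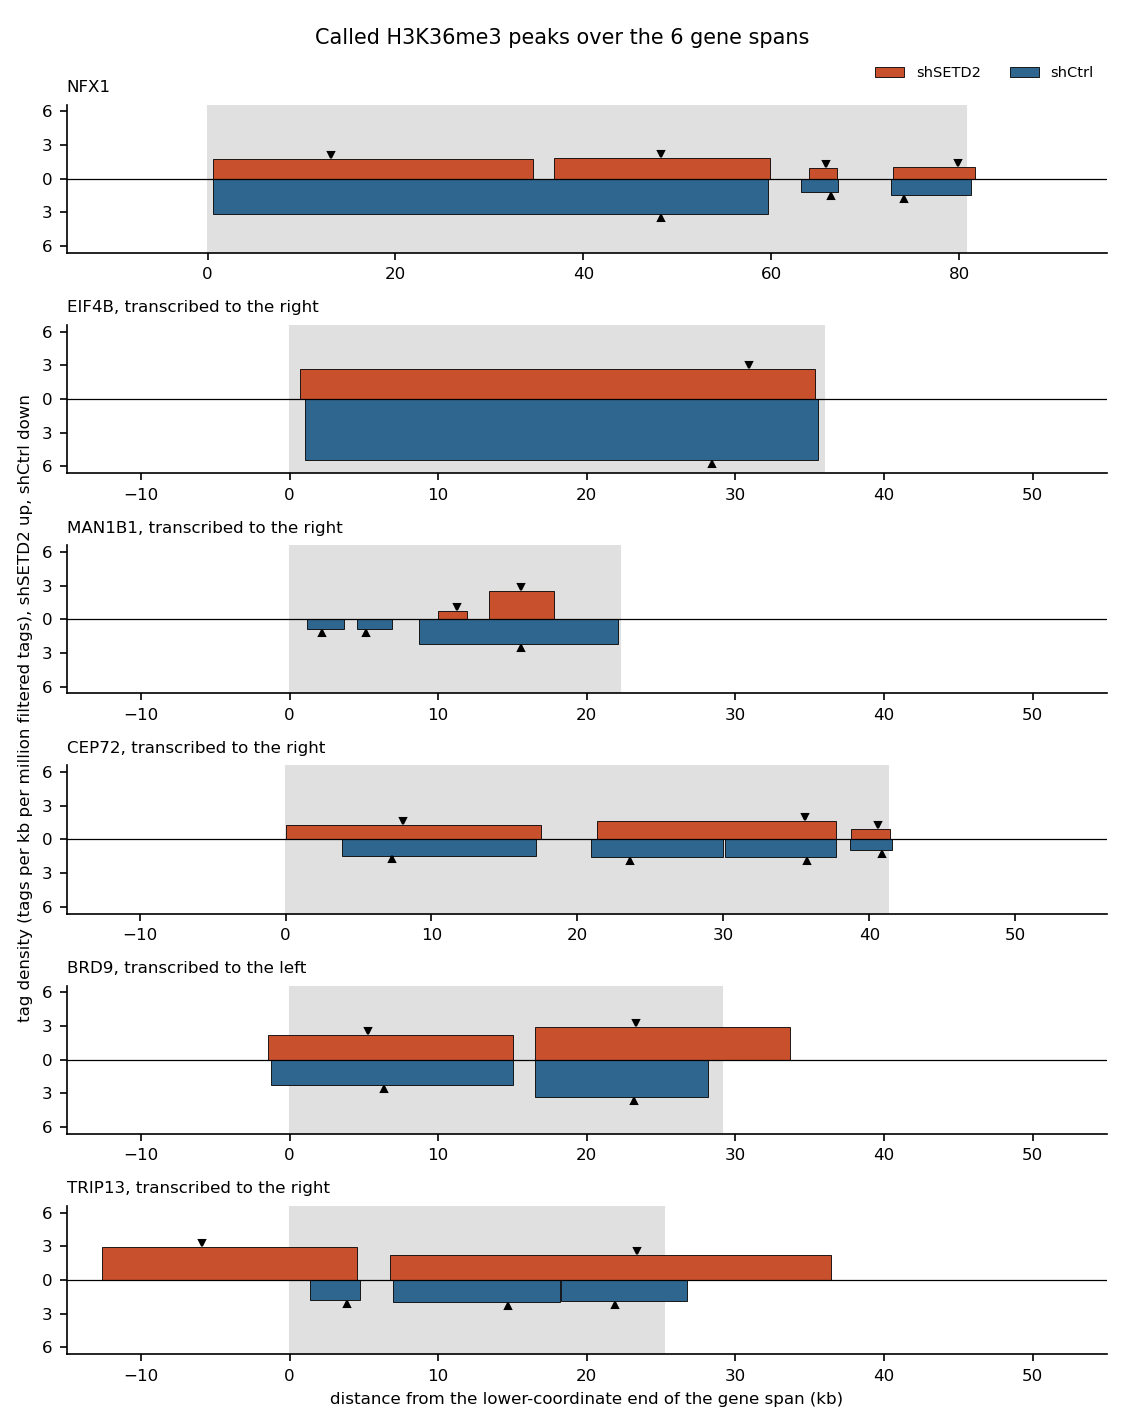
Called peaks over each gene, with distance from the lower-coordinate end of the gene span in kb on the horizontal axis and tag density as bar height, shSETD2 above and shCtrl below the line; grey marks the span and triangles mark summits. EIF4B is covered over 96.4% in shSETD2 and 96.0% in shCtrl, while MAN1B1 is covered over 28.2% and 81.7%.

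The other 3 genes lie within 306 kb near the end of the short arm of chromosome 5. In the knockdown each held at least 95.8% of its control density over its own peaks, with no background taken off. With the density outside peaks taken off, the log2 ratios were -0.13 at CEP72, -0.13 at BRD9 and 0.39 at TRIP13. CEP72, at 612387 to 653668, encodes a centrosomal protein that takes part in recruiting microtubule-nucleating complexes. Its density was 1.45 in shSETD2 (1.40 to 1.50) and 1.45 in shCtrl (1.40 to 1.52), with a log2 ratio of -0.01 (-0.08 to 0.07). With all called peaks, more of it was covered in the knockdown, 88.2% in shSETD2 against 78.8% in shCtrl. Under an FDR limit of 5% this turned round. Only the knockdown peak of 16.4 kb remained (FDR 4.4%), over 39.7% of the span. The control peaks kept under that limit held 32.3%, 21.8% and 18.5% of it. The first knockdown peak, 17.5 kb wide with an FDR of 5.17%, began 9 bp after the low end of the span. The first control peak, 13.3 kb wide, began 3.86 kb after it. Further along, 1 knockdown peak of 16.4 kb at a density of 1.66 (1.59 to 1.74) spanned 2 control peaks of 8.99 and 7.64 kb at 1.55 and 1.56. The gap between those 2 was 142 bp. The third knockdown peak, at the end of the gene, had a density of 0.944 in shSETD2 and 0.966 for its counterpart in shCtrl, within counting error.

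BRD9 and TRIP13 are neighbours read in opposite directions from starts only 29 bp apart by their hg19 spans. BRD9, at 863850 to 892939, encodes the bromodomain subunit that defines the non-canonical BAF chromatin remodelling complex. It was covered over 95.1% in shSETD2 and 91.9% in shCtrl, at densities of 2.58 (2.52 to 2.65) and 2.70 (2.61 to 2.79), a log2 ratio of -0.06 (-0.12 to -0.00). The knockdown sum took in the part of a peak that ran 4.60 kb past the gene, so the bounds were unlike. The peak over the end of the gene had nearly the same bounds in both lists, with starts 182 bp and ends 11 bp apart, and densities of 2.22 in shSETD2 and 2.26 in shCtrl within counting error. Towards the start of BRD9, a knockdown peak of 17.2 kb at 2.93 (2.83 to 3.03) stood over a control peak of 11.7 kb at 3.30 (3.15 to 3.46). Their summits were 70 bp apart.

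The starts themselves differed in the calls. In shCtrl, a gap of 2.28 kb from 892033 to 894311 parted the peaks of BRD9 and TRIP13 and held both starts. In shSETD2, the peak of 17.2 kb from 880341 to 897537 ran across them without a break, so it belongs to both genes and 26.6% of it lies in TRIP13. Over both control peaks together the density was 2.97, against 2.93 in that knockdown peak, a log2 ratio of -0.02 (-0.10 to 0.06). The lists also differed in filtered tags (67053273 in shSETD2, 47880817 in shCtrl) and in density outside peaks (0.337 and 0.235). Their part in joined or wider calls, here and at CEP72, was not tested.

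The 250 bases before the starts of these genes are shown because knockdown peaks reached the starts and control peaks did not. They ran across the starts of BRD9 and TRIP13 and to within 9 bp of that of CEP72. The CEP72 peak in question had an FDR of 5.17%. The bases come from RefSeq on GRCh38.p14, and their coordinates cannot be set against the hg19 positions above. The table of start windows matched 5 of the 6 symbols, all but NFX1. For CEP72 (chr5:612090-612339, plus strand) capitals mark matches of CCGCCC or its reverse complement. For BRD9 (chr5:892802-893051, minus strand, 1 of its annotated starts) and TRIP13 (chr5:892634-892883, plus strand) capitals mark the 82 bases that both windows hold on opposite strands. The starts behind these windows are not both those of the hg19 spans, which are 29 bp apart.
CEP72: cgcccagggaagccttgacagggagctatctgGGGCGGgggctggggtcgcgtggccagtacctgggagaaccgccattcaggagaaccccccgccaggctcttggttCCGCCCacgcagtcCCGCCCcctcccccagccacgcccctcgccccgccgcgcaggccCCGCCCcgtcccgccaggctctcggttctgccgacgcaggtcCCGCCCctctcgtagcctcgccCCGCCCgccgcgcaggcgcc
BRD9: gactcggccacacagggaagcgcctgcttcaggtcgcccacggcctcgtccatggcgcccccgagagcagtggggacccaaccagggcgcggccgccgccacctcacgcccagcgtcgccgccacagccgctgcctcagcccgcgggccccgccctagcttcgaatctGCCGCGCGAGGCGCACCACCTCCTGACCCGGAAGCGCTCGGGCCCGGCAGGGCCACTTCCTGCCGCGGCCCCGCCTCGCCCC
TRIP13: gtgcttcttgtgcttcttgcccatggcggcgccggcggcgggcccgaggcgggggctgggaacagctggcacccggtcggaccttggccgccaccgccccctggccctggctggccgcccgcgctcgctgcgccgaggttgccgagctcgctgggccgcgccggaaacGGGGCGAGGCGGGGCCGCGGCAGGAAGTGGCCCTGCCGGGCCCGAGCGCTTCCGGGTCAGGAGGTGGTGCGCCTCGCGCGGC
All 3 windows were rich in G and C, with 76.4% in CEP72, 76.8% in BRD9 and 78.8% in TRIP13, against a median of 58.0% over 35116 windows. They held 28, 32 and 35 CpG dinucleotides, against a median of 11. CCGCCC, read on both strands, occurred 6 times in CEP72, 1 time in BRD9 and 2 times in TRIP13, and 42.6% of all windows held it. CGGAAG, read on both strands, occurred at 1 site, within the bases that the BRD9 and TRIP13 windows share, and 16.5% of all windows held it. These counts describe sequence and show no bound factor. The windows of EIF4B and MAN1B1 are not given here, so a link between these sequences and the calls at the starts was not tested.

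TRIP13, at 892969 to 918164, encodes an AAA+ ATPase that remodels MAD2 and helps to take apart the mitotic checkpoint complex. It was the single gene of the 6 with a higher density in the knockdown beyond counting error, at 2.51 in shSETD2 (2.45 to 2.56) and 1.89 in shCtrl (1.81 to 1.97), a log2 ratio of 0.41 (0.34 to 0.48). Part of this comes from the peak it shares with BRD9: without that peak, which has under 50% of its length in TRIP13, the ratio was 0.26. The remaining knockdown peak, 29.7 kb wide at 2.26 (2.20 to 2.33), spanned 2 control peaks of 11.3 and 8.44 kb at 1.93 and 1.86, parted by 70 bp. It ran 11.2 kb past the high end of the span, while the last control peak ended 1.54 kb past it.

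**Figure D4:**
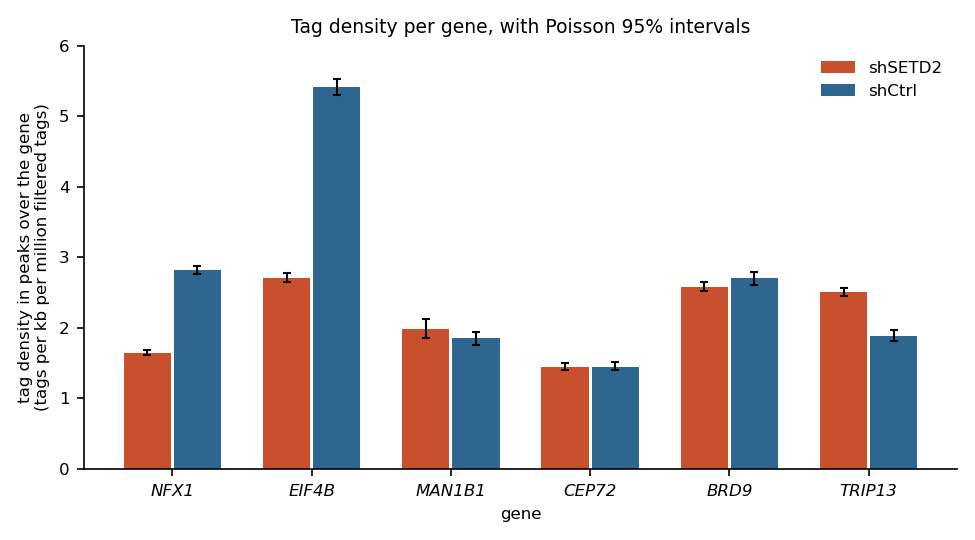
Tag density over all peaks of each gene in shSETD2 (left bars) and shCtrl (right bars), with Poisson 95% intervals that cover counting error only. The 2 bars are 2.71 and 5.41 at EIF4B and 1.65 and 2.82 at NFX1, close to each other at CEP72 and BRD9, and 2.51 and 1.89 at TRIP13.

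Calls were joined or split between the lists at some genes. Among the 13 knockdown peaks, 3 spanned 2 or more control peaks, all of them over CEP72, BRD9 or TRIP13. The share was 2.07% over all knockdown peaks. These 3 were the peaks of rank 2, 5 and 8 that chose the genes, on the same stretch of chromosome 5. Their share is therefore a description. Among peaks of 10 kb or more the counts were 3 of 8 over these genes and 4.77% of all. Conversely, 3 of the 16 control peaks had 2 or more knockdown peaks on them, against 10.5% of all control peaks. They were the long NFX1 peak, the long MAN1B1 peak and the last CEP72 peak, which also touched a knockdown peak beyond the gene.

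Summits coincided at some members. In 4 of the 13 knockdown peaks the summit lay within 100 bp of a control summit, against 17.3% of the 19497 knockdown peaks on control peaks. The distances were 3 bp at MAN1B1, 32 bp at CEP72, 42 bp at NFX1 and 70 bp at BRD9. In each case this was at the most enriched knockdown peak of the gene, the one that chose it, so the share is a description. The most enriched peaks of EIF4B and TRIP13 had summits 2483 and 1448 bp from the nearest control summit. The median distance was 715 bp over the 13 peaks and 873 bp over all.

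Other peaks around the 3 genes of chromosome 5 were counted on each side, over stretches of unequal length. Between the low end of the chromosome and CEP72, which starts at 612387, 4 of 8 other knockdown peaks on control peaks were denser in shSETD2, with a median log2 ratio of 0.05 (range -0.45 to 0.38). Within 1 Mb beyond TRIP13, 1 of 19 was denser, with a median of -0.58 (-1.14 to 0.06). Over all 1152 such peaks of chromosome 5 outside the 3 genes, these neighbours included, 35 were denser, or 3.04%, and the median was -0.66. Between CEP72 and BRD9, a stretch of 210 kb, shSETD2 had 10 peaks covering 31.2 kb and shCtrl had 3 covering 11.7 kb. Of those 10, 2 overlapped a control peak, against 83.0% of the whole knockdown list.

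The genes on the other chromosomes stood differently to their neighbours. At NFX1 the ratio summed over its peaks (-0.77) was close to the median of -0.80 of 48 other single peaks within 1 Mb. None of those was denser in the knockdown. At EIF4B (-1.0) it lay below the median of -0.66 of 29 others, within their range of -1.14 to 0.22. Around MAN1B1 none of 43 others was denser in the knockdown and their median was -0.72 (range -1.31 to -0.09). Its core (0.20, 0.07 to 0.33), the peak that chose the gene, lay above that range. Its other knockdown peak (-1.57, -1.88 to -1.27), with an FDR of 80.25%, lay below that range. Both ratios are against the mean density of the same control peak of 13.4 kb, which is wider than either. They therefore do not compare the same bases. By gene MAN1B1 stood above the range over its own peaks (0.10, -0.02 to 0.22) and within it over the whole span (-0.96). The range is of single peaks, so these gene values are not the same measure.

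**Figure D5:**
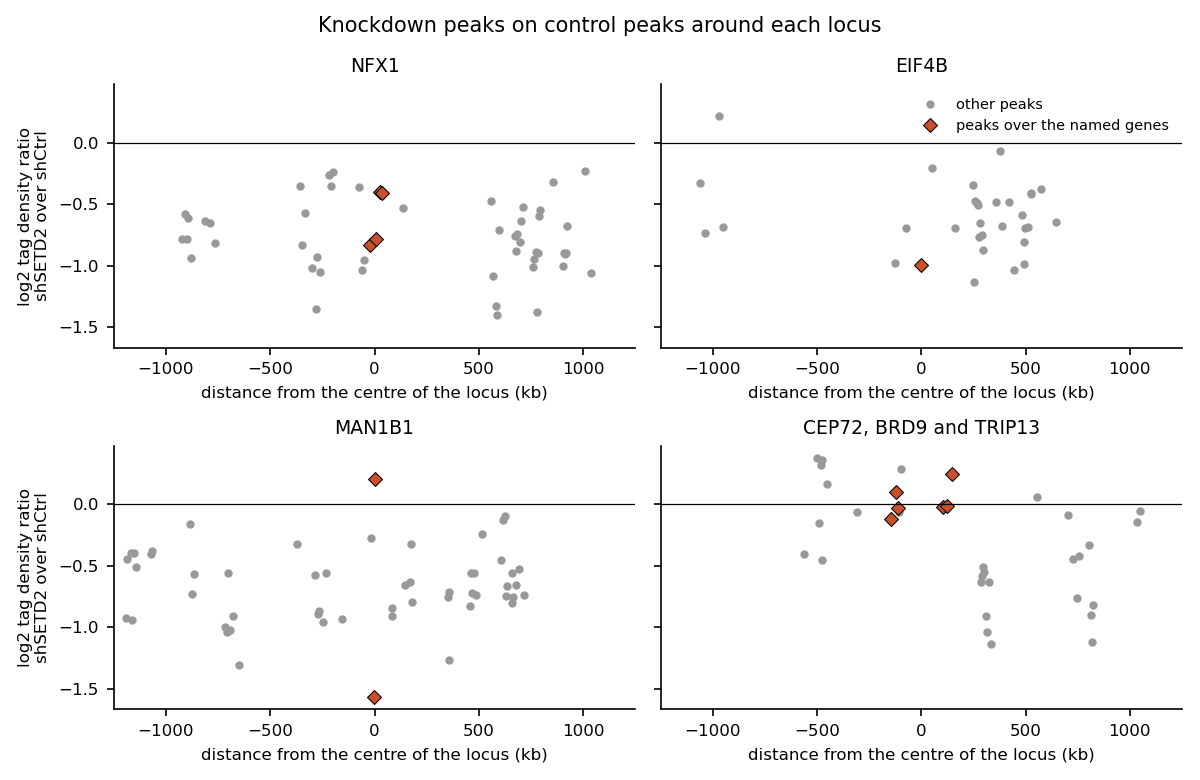
Log2 ratio of tag density, shSETD2 over shCtrl, for knockdown peaks on control peaks, against distance from the centre of each locus in kb; diamonds are peaks over the named genes and grey points other peaks. On chromosome 5 the diamonds lie from -0.12 to 0.25, and at NFX1 all 4 lie below 0.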

How the data were processed

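H3K36me3 ChIP-seq and input DNA of HepG2 cells were analysed. Per the labels' protocols, virus harvested at 48 and 72 h was applied in polybrene (4 µg/mL), followed by puromycin selection (1 µg/mL). Bowtie 1.1.2, FastQC 0.11.5 and hg19 are named in the submitters' processing notes. MACS 1.4.2 (p limit 1e-05, 1 duplicate tag per position) made the lists, per the file headers, from 1 merged immunoprecipitate against 1 merged input per condition. The deposited tag counts are raw tags per peak. The deposited fold enrichment is a ratio over local input, and the deposited score is the log10 of the p-value multiplied by -10. The deposited FDR, in percent, comes from exchanging immunoprecipitate and input. Peak widths and summit offsets are in bp, per the file headers. The shorter deposited lists held exactly the peaks with an FDR of 5% or less.

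Gene spans on hg19 were those that define the set. Density has Poisson intervals, and its ratio has an exact conditional binomial interval. Where several peaks overlapped, tags and widths were summed, each list over its own bounds. The filtered inputs held 69095038 tags in shSETD2 and 67158956 in shCtrl. The labels do not say whether replicates were separate cultures. The 6 genes, named by that rule, and the measures were chosen with earlier results of these data known. Partner genes of the members were listed, but are not analysed here, since their hg19 spans were not used. Python 3.11.15, pandas 2.3.3, NumPy 2.4.6, SciPy 1.17.1 and matplotlib 3.10.9 were used. The overlap of peaks and the ratio with its interval were tested on simulated data, the other steps were not.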

Additional observations from a re-analysis of the deposited data

How the results depend on the processing

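No paired analysis was possible because each list was called on pooled replicates, so no replicate could be left out either. Under the 5% FDR limit, and equally in the shorter lists, the 6 genes kept 7 knockdown peaks covering 129 kb and 13 control peaks covering 197 kb. Covered length was 194 kb in shSETD2 at a score of 100 or more, 181 kb in shSETD2 and 200 kb in shCtrl at a fold enrichment of 5 or more, and 204 kb and 212 kb with peaks merged within 3000 bp. The median log2 ratio of the 6 genes, -0.03, was 0.04 with an FDR of 5% or less or the widest peak alone, -0.13 with the density outside peaks taken off, and -0.42 over whole spans, a setting added after the data were seen. The number of genes denser in shSETD2, 2 of 6, was 2 or 3 under all settings. The median control rank, 770, was 1816 by tags per kb and 897 by score. Of 42 values of single genes under other settings, 36 kept their sign. CEP72, at -0.01, turned to 0.15 with an FDR of 5% or less and 0.03 with a fold enrichment of 5 or more. It was 0.01 with all tags as depth and 0.14 over the whole span. MAN1B1, at 0.10, turned to -0.96 over the whole span. BRD9 turned to 0.37 with the widest peak alone, which takes different parts of the gene in the lists.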

Other observations

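Beside the genes, a few domains continued past their ends. At CEP72, knockdown peaks of 7.99 and 6.73 kb lay 0.191 and 9.39 kb beyond the high end of the span, at densities of 1.16 and 0.982. In shCtrl, 3 peaks of 5.95, 4.49 and 1.23 kb lay there at densities of 1.33, 0.819 and 0.748. Below the low end of NFX1, at a distance of 7.69 kb, a knockdown peak of 9.23 kb at a density of 1.22 stood against a control peak of 17.2 kb at 2.37.

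The knockdown peaks closest to the mean of the 6 genes (2.09 in shSETD2 and 2.44 in shCtrl, by log2 density in the 2 lists) are given as a description, with their fold enrichment in the knockdown list. The nearest was on chromosome 21 from 44881673 to 44885258, with 2.11 in shSETD2, 2.46 in shCtrl and a fold enrichment of 4.43. Next came chromosome 15 from 69744998 to 69749551 and chromosome 1 from 150935729 to 150942858, with fold enrichments of 5.02 and 7.44. The other 2 of the 5 nearest had 7.83 and 9.12.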
